A study of Mus musculus with 12 samples.

Results

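Nuclear-encoded genes of the respiratory chain and of ATP synthase were followed across 11 RNA-seq libraries of mouse embryos. The genes were chosen by name: all rows of the count table whose symbol begins with Nduf followed by a, b, c, s or v, with Uqcr, with Cox4 to Cox8 or with Atp5, leaving out rows marked as pseudogenes by the ending -ps. The rule found 93 of the 36255 genes in the table and left out 14 rows with that ending. By name, 49 genes belong to complex I, 8 to complex III, 19 to complex IV and 17 to complex V.

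The respiratory chain sits in the inner membrane of the mitochondrion and passes electrons from NADH to oxygen while it moves protons across the membrane. Complex I (NADH dehydrogenase), complex III (cytochrome bc1) and complex IV (cytochrome c oxidase) are the proton pumps, and complex V (ATP synthase) uses the proton gradient to make ATP. Each of these complexes is built from proteins of both genomes: the mitochondrial genome encodes a few hydrophobic subunits, and the nuclear genes described here encode most of the others. In the embryo, glycolysis supplies much of the energy around implantation, and the use of oxygen is known to grow in the days that follow.

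The libraries fall into 6 groups by their titles, all from mouse embryo as the labelled source. Libraries labelled Skp1aKO at 9.5 days post coitum (dpc), Skp1acont at 9.5 dpc, wt PI at 9.5 dpc, wt at 9.5 dpc and wt at 9.0 dpc number 2 each, and Skp1acont PI at 9.5 dpc has 1 library, with the other one not analysed here. The protein SKP1A is an adaptor in SCF ubiquitin ligases, and the study is about its role in the breakdown of PRC2, a Polycomb complex that silences developmental genes. No label explains "cont", "PI" or the letters "mb" that stand in every title, and whether whole embryos or a part of them was sequenced is not stated. The labels name no strain, Cre or deleted exon, and give a culture medium for ES cells and embryoid bodies next to the embryo source. Nothing in them tells if replicates are separate embryos, so a p-value here reflects the variation among libraries, possibly technical only.

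Of the 93 genes, 86 passed the filter on low counts and were tested. The 7 that did not are Cox6a2, Cox8b and Cox7b2 (isoforms known from heart and skeletal muscle or from testis), the testis isoform Cox8c, and the annotated processed pseudogenes Cox6c2, Ndufa11b and Ndufs6b. None of these 7 reached 2 CPM in any library, where CPM is the counts-per-million value scaled by the trimmed mean of M-values (TMM). The 93 genes include 8 assembly factors of complex I (Ndufaf1 to Ndufaf8), which help to build the complex without staying in it, and 4 annotated pseudogenes. Ndufa4 is counted by its name in complex I, although its protein is now known as a subunit of complex IV, and Cyc1 of complex III is outside the rule. Ndufb4c is a pseudogene that resembles Ndufb4, so the division of counts between these genes is uncertain.

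Many promoters of these genes are known targets of nuclear respiratory factor 1 (NRF1), of ETS-family factors and of YY1. The sequences below are examples picked because they hold the core of the NRF1 consensus. RefSeq promoter windows of GRCm38.p6, which run from 250 bases before to 50 bases after the start, were found for 73 of the 93 genes. The palindrome CGCATGCG, the core of the NRF1 consensus, was present in 11 of these 73 windows (15.1%), against 2.07% of 27025 genes with a window and 3.45% of the 13526 tested genes with one. The ETS letters CCGGAAG were found in 17 windows (23.3%), against 9.93% of all genes and 15.7% of tested ones. The YY1 letters AAGATGGC were found in 11 windows (15.1%), against 3.19% of all genes and 4.15% of tested ones. Both strands were searched, motifs were allowed to overlap, and a match is a description of the letters and no evidence of binding. The 8 members with the palindrome wholly upstream of the start are shown by 80 bases each, with the palindrome in capitals and the sequence read 5′ to 3′ along the gene.
Atp5g2: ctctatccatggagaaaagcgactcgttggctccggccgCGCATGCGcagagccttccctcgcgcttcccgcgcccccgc
Atp5j: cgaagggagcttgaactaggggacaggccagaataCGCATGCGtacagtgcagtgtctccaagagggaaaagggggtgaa
Atp5k: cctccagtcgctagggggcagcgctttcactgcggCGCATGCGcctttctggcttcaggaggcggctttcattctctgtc
Atp5l: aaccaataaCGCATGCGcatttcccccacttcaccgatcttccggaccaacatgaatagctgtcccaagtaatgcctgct
Cox6a1: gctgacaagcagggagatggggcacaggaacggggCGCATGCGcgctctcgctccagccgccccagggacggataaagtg
Ndufa8: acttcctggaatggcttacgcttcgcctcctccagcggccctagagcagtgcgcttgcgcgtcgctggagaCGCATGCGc
Ndufa11: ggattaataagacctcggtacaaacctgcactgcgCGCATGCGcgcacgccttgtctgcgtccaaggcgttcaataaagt
Ndufaf4: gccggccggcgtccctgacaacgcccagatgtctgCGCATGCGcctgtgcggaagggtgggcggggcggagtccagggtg
The first 4 windows lie at chr15:102671048-102671127 on the minus strand (Atp5g2, c-ring of ATP synthase), chr16:84835079-84835158 on the minus strand (Atp5j, its peripheral stalk), chr5:108434404-108434483 on the minus strand (Atp5k, subunit e) and chr9:44920913-44920992 on the minus strand (Atp5l, subunit g). The other 4 lie at chr5:115349075-115349154 on the minus strand (Cox6a1, subunit 6A of complex IV), chr2:36049339-36049418 on the minus strand (Ndufa8, a complex I subunit of the intermembrane side), chr17:56717668-56717747 on the plus strand (Ndufa11, membrane arm of complex I) and chr4:24897936-24898015 on the plus strand (Ndufaf4, an assembly factor). In the remaining 3 members, Uqcr11, Uqcrc1 and Ndufaf5, the palindrome lies across the start or after it. Among these 11 genes, in libraries labelled Skp1aKO against wt, are members that fell strongly, such as Atp5j, and members that did not pass, such as Atp5g2 and Ndufa8.

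The libraries differ in make-up and depth. Total counts were 2320599 to 4203553 in the 5 libraries with a Skp1a label and 3392251 to 11607085 in the 6 wt libraries, and in each wt group the library of lot 2 was the deeper one. Skp1a itself had 199 and 212 CPM in libraries labelled Skp1aKO, 303 and 104 CPM in those labelled Skp1acont, and 930.2 and 1136 CPM in wt libraries. The targeted gene therefore does not separate the libraries labelled Skp1aKO from those labelled Skp1acont, and every direction below is between libraries so labelled. Skp1acont replicate 2 stands apart: it has the lowest total, and its log2 CPM correlated with replicate 1 at r = 0.795 across genes, while the replicate pairs of the other groups gave 0.966 to 0.980. The numbers of members called in comparisons with a Skp1a label are given with and without this library. The libraries with a Skp1a label also had more counts from the mitochondrial genome (5.98% to 15.8%, against 2.44% to 4.01% in wt libraries) and from the gene Dock10 (4.48% to 12.0%, against 0.532% to 2.27%). They had more counts from 1507 genes named as olfactory, vomeronasal or bitter taste receptors as well (1.48% to 4.77%, against 0.321% to 0.569%), genes known mainly from sensory cells of the nose and tongue. The part of these differences in the results below was not tested.

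In wt embryos at 9.5 dpc the members spanned a wide range of levels per length of exon. Uqcrb, a small subunit of complex III, had the highest mean, 1729 ± 336 CPM per kb (SD, n = 2), followed by Cox7c of complex IV with 1725 ± 289 CPM per kb, and these neighbours do not differ beyond their spread. Cox6b1 came next with 1455 ± 5.10 CPM per kb, then Cox7a2 with 1308 ± 42.3 and Uqcr10 with 1165 ± 7.25. The catalytic β subunit of ATP synthase, Atp5b, was in the middle of the order at rank 47 with 184 ± 0.630 CPM per kb. Among the core subunits of complex I, Ndufv1 (the NADH-binding subunit) had 15.1 ± 1.41 CPM per kb and Ndufs1 (which carries iron-sulfur clusters) 12.9 ± 1.02, with both wt libraries higher for Ndufv1 than for Ndufs1. By CPM without division by exon length, Ndufs1 was the higher of these genes in both wt libraries. Assembly factors were low as well, with 82.6 ± 0.239 CPM per kb for Ndufaf2 and 10.4 ± 0.0763 for Ndufaf6. At the low end stood the hypoxia-linked isoform Cox4i2 with 2.48 ± 0.867 CPM per kb, and Cox6a2, Cox8b, Cox8c and Ndufs6b, which had no count in either wt library at 9.5 dpc. These are levels per kb of the union of annotated exons, so a gene with a long and rarely used exon reads too low.

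All 4 complexes took a smaller share of the counts in every library with a Skp1a label than in every wt library. The 93 genes together made up 0.584% to 2.01% of the counts in the 5 libraries with a Skp1a label, against 2.51% to 3.32% in the 6 wt libraries. By complex the ranges were 0.221% to 0.792% against 0.884% to 1.11% for complex I, and 0.0635% to 0.215% against 0.273% to 0.383% for complex III. They were 0.121% to 0.366% against 0.518% to 0.750% for complex IV, and 0.178% to 0.638% against 0.831% to 1.10% for complex V. The lowest of all 11 libraries was Skp1acont replicate 2 and the highest of the 5 was Skp1acont replicate 1, so that the pair with the same label spans the Skp1aKO libraries. Without Skp1acont replicate 2 the lowest share of the 93 genes among libraries with a Skp1a label was 0.990%. The separation was not particular to these genes. Cytosolic ribosomal protein genes had 3.44% to 9.33% in libraries with a Skp1a label, against 12.7% to 16.1% in wt libraries. Genes of the mitochondrial ribosome had 0.240% to 0.724% against 0.909% to 1.08%. A share is relative to all counts of its library, and in bulk RNA fewer cells of a type and less RNA per cell cannot be told apart.

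Genes for subunits of the same complexes in the mitochondrial genome took a larger share of the counts in the same libraries, as given above, so that nuclear and mitochondrial genes were set against each other. The summed CPM of the nuclear genes divided by that of the mitochondrial genes of the same complex was 0.0617 to 0.531 for complex I in libraries with a Skp1a label, against 1.14 to 1.66 in wt libraries. For complex IV, whose catalytic subunits are encoded in the mitochondrion, the ratio was 0.0149 to 0.161 against 0.522 to 0.971. Complex III, with cytochrome b as its 1 mitochondrial subunit, gave 0.0445 to 0.277 against 0.645 to 1.21, and complex V gave 0.0683 to 0.447 against 0.841 to 1.33. The ranges do not overlap for any complex, and without Skp1acont replicate 2 the lowest ratios were 0.135 for complex I, 0.0849 for complex III, 0.0529 for complex IV and 0.135 for complex V. The ratio compares libraries after poly(A) selection and is no ratio of molecules. The shares of ribosomal protein genes, given above, separated the same libraries, and no such ratio was made for them.

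**Figure D1:**
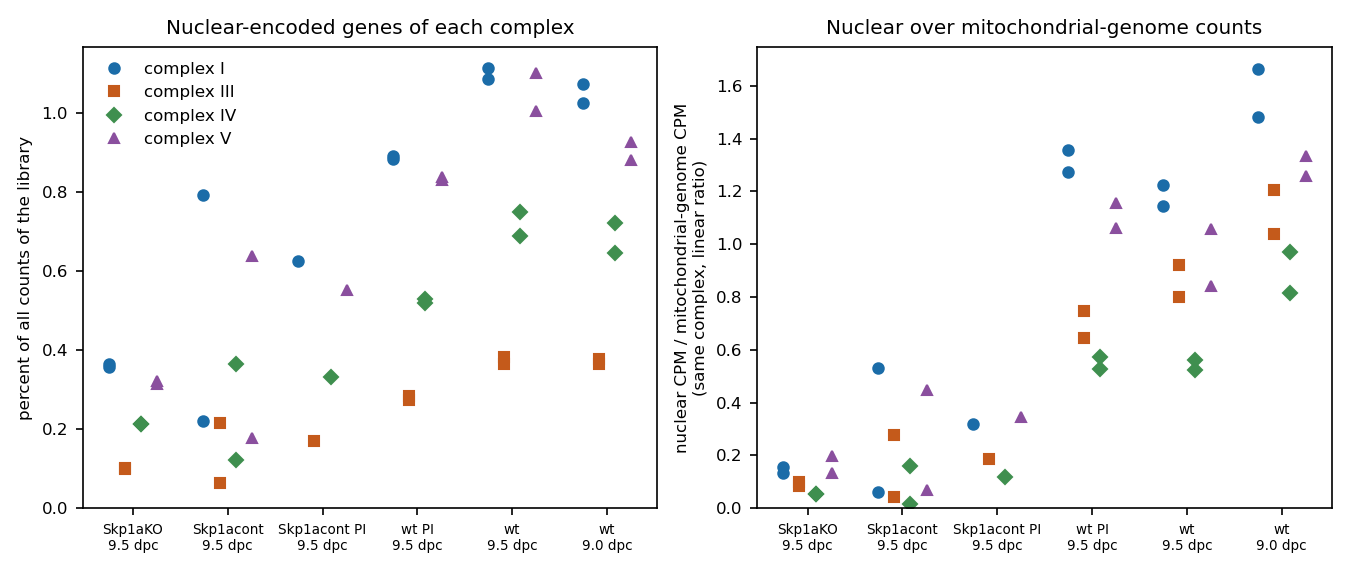
Left, the share of each library's counts, in percent, taken by the nuclear-encoded genes of complexes I, III, IV and V; right, the summed CPM of these genes divided by the summed CPM of the mitochondrial-genome genes of the same complex. Each point is 1 library, with the groups along the x axis. The 5 libraries with a Skp1a label lie below the 6 wt libraries for every complex in both plots, and the 2 Skp1acont libraries lie far apart.

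The question of the comparison of Skp1aKO with wt libraries is how embryos with the labelled knockout differ from wild type at the same age. At 9.5 dpc, 67 of the 86 tested members were lower in libraries labelled Skp1aKO and 0 were higher, by edgeR's quasi-likelihood test at an adjusted p under 0.05 over all 18837 genes. Of all tested genes, 18.7% were lower and 17.6% higher in this comparison, or 36.4% in either direction. The median log2 fold change of the members was -2.44, beside 0.24 for all genes. Scaling by library totals in place of TMM moved the median of all genes to 1.03 and turned the calls of all genes to 6804 higher (36.1%) and 1400 lower (7.43%), and it left 50 members lower, 0 higher and the members' median at -1.64. The decrease covered 37 of 47 tested genes of complex I (median -2.28), 7 of 8 of complex III (-2.48), 10 of 14 of complex IV (-2.74) and 13 of 17 of complex V (-2.65). In 82 of the 86 genes both Skp1aKO libraries were below both wt libraries, and the other 4, in which the libraries overlapped, were Ndufa4l2, Ndufaf8, Atp5d and Atp5g2. Of all tested genes, 38.5% had both Skp1aKO libraries below both wt libraries and 46% had them above.

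**Figure D2:**
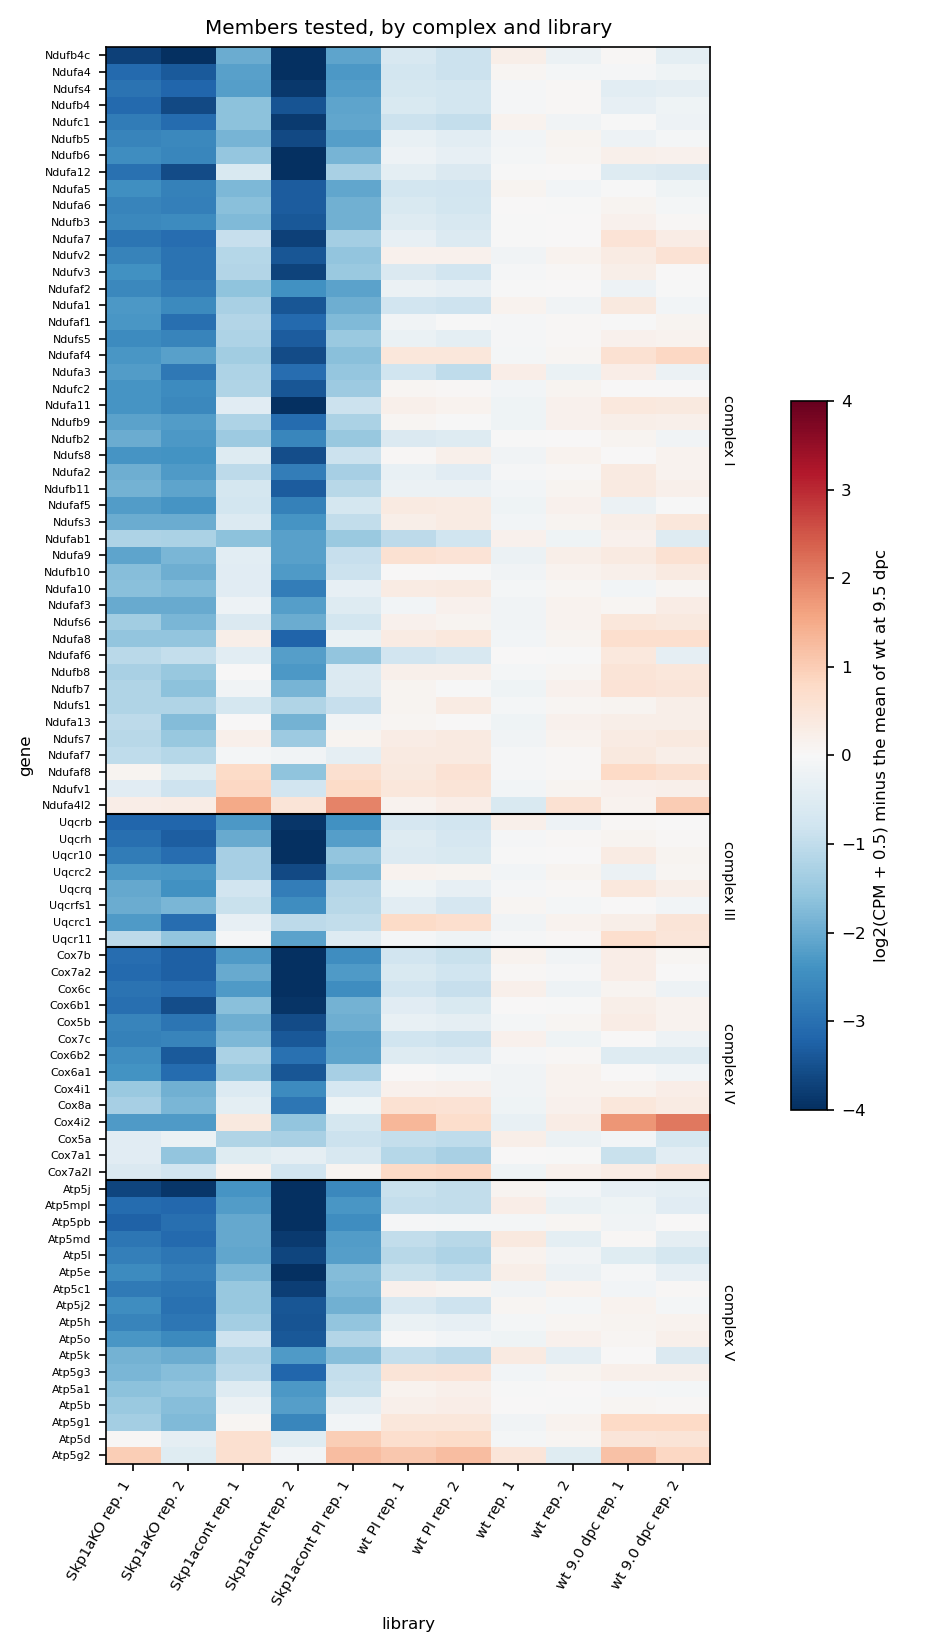
Colour shows log2(CPM + 0.5) minus the mean of the 2 wt libraries at 9.5 dpc, for all but 1 of the 86 tested genes (rows, sorted within complex by the mean over the 5 libraries with a Skp1a label) in the 11 libraries (columns); values beyond 4 either way have the end colour. Most rows are blue in all 5 libraries with a Skp1a label, deepest in most rows in Skp1acont replicate 2, while Atp5g2, Atp5d, Ndufaf8 and Ndufv1 are near white or red in several of them.

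The core of complex I was lower in 4 of 7 subunits, with a median log2 fold change of -1.33. Ndufv2, which carries an iron-sulfur cluster beside the NADH site, had 58.4 and 47.9 CPM in libraries labelled Skp1aKO, against 337 and 411 CPM in wt libraries. Its log2 fold change was -2.81 ± 0.65 (SE; edgeR adjusted p = 0.0132). Ndufs8, another iron-sulfur subunit, had 20.8 and 20.3 against 96.5 and 120.0 CPM, and changed by -2.40 ± 0.72 (SE; edgeR adjusted p = 0.0308). Both genes were lower in each Skp1aKO library than in each wt library. Ndufs1, the large subunit with iron-sulfur clusters, had 45.2 and 45.5 against 98.7 and 110.4 CPM and fell less, with -1.21 ± 0.31 (SE; edgeR adjusted p = 0.0196). Ndufs3 had 33.6 and 33.3 CPM against 125 and 144 CPM and changed by -2.01 ± 0.52 (SE; edgeR adjusted p = 0.0188). Ndufs7 (-1.33 ± 0.48) and the NADH-binding Ndufv1 (-0.65 ± 0.44) did not pass the test (log2 ± SE; edgeR adjusted p = 0.0538 and 0.248 in this order).

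The supernumerary subunits, which surround the core of complex I, were lower in 26 of 30 cases with a median of -2.46. Ndufb4, a membrane-arm subunit at chr16:37647170-37654453 (GRCm38), had 27.0 and 19.2 CPM in libraries labelled Skp1aKO, against 228 and 248 CPM in wt libraries, a log2 fold change of -3.36 ± 0.56 (SE; edgeR adjusted p = 0.00511). Its look-alike Ndufb4c had 22.9 and 16.6 against 367 and 264 CPM and changed by -3.99 ± 0.80 (SE; edgeR adjusted p = 0.00855). Reads of these genes may have been counted for either of them, and their sum is low in the same libraries. Ndufa12, close to the N-module of the complex, had 94.2 and 62.3 against 733 and 753 CPM (-3.25 ± 0.87 (SE; edgeR adjusted p = 0.0216)). Ndufa4 had 179.8 and 151 against 1651 and 1473 CPM (-3.24 ± 0.69 (SE; edgeR adjusted p = 0.0104)), which makes it the most abundant member by CPM among the genes named for complex I. Ndufab1, the acyl carrier protein that also serves fatty acid synthesis, fell less, with 67.2 and 66.7 against 179 and 142 CPM (-1.26 ± 0.36 (SE; edgeR adjusted p = 0.0266)). The 4 that did not pass were Ndufa8, Ndufa13, Ndufb7 and Ndufb8, with log2 fold changes from -1.60 to -1.35 and edgeR adjusted p from 0.0541 to 0.121.

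Of the 8 assembly factors, 6 were lower and the median was -2.20. Ndufaf2, a factor that binds late assembly intermediates, had 41.1 and 34.0 CPM in libraries labelled Skp1aKO, against 246 and 247 CPM in wt libraries, a change of -2.71 ± 0.39 (SE; edgeR adjusted p = 0.00364). Ndufaf4, whose promoter is shown above, had 28.9 and 32.2 against 141 and 156 CPM (-2.28 ± 0.59 (SE; edgeR adjusted p = 0.0188)). Ndufaf6 (-1.07 ± 0.50) and Ndufaf8 (-0.17 ± 0.58) did not pass (edgeR adjusted p = 0.113 and 0.816). Ndufaf8 had 25.7 and 16.8 against 23.1 and 24.8 CPM, so that its groups overlap.

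In complex III the 3 core subunits and 4 of 5 small subunits were lower. Uqcrc1, a core protein of the matrix side, had 22.3 and 12.8 CPM in libraries labelled Skp1aKO, against 99.5 and 119 CPM in wt libraries, a change of -2.64 ± 0.41 (SE; edgeR adjusted p = 0.0043). Uqcrc2, its partner, changed by -2.32 ± 0.63 (SE; edgeR adjusted p = 0.0218), and Uqcrfs1, the Rieske iron-sulfur protein, by -1.92 ± 0.47 (SE; edgeR adjusted p = 0.0163). Uqcrb at chr13:66900617-66905378 (GRCm38), with the highest level per kb in wt embryos, had 165 and 165 against 1723 and 1307 CPM (-3.20 ± 0.57 (SE; edgeR adjusted p = 0.00619)). Uqcrh, the hinge protein that holds cytochrome c1, had 141 and 115 against 1098 and 1192 CPM (-3.16 ± 0.64 (SE; edgeR adjusted p = 0.00914)). The fall of the small subunits was thus seen at the top of the level range. Uqcr10 changed by -2.92 ± 0.72 (SE; edgeR adjusted p = 0.0162), and Uqcr11 was the 1 gene that did not pass (-1.28 ± 0.59 (SE; edgeR adjusted p = 0.105)).

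In complex IV, 8 of 11 main subunits were lower, with a median of -2.70. Cox7a2 had 143 and 127 CPM in libraries labelled Skp1aKO, against 1263 and 1207 CPM in wt libraries (-3.19 ± 0.68 (SE; edgeR adjusted p = 0.0106)). Cox6b1, which faces the cytochrome c binding side, had 128 and 87.9 against 1033 and 1028 CPM (-3.25 ± 0.68 (SE; edgeR adjusted p = 0.00964)). Cox5b, a zinc-binding subunit, had 81.8 and 67.4 against 487 and 539 CPM (-2.78 ± 0.53 (SE; edgeR adjusted p = 0.00769)). In these 3 genes the Skp1aKO libraries were far below the wt libraries. Cox4i1, the main form of the largest nuclear subunit, fell less, with 229.9 and 170.3 against 590.2 and 717 CPM (-1.71 ± 0.59 (SE; edgeR adjusted p = 0.0458)). Cox5a, which joins Cox4i1 early in the assembly of the complex, had 129 and 146 against 208 and 147 CPM and did not pass (-0.37 ± 0.35 (SE; edgeR adjusted p = 0.396)). The higher Skp1aKO library was next to the lower wt library. Cox7a2l (-0.69 ± 0.39) and Cox8a (-1.57 ± 0.66) did not pass either (edgeR adjusted p = 0.168 and 0.0833).

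In complex V, all 9 subunits of the peripheral stalk and the membrane part other than the c-ring were lower, with a median of -2.82, while 4 of 8 core subunits were. Of all tested genes 18.7% were lower, and 51.2% of other genes with at least 100 CPM. Differences between classes of subunits in Skp1aKO against wt were not tested in any complex. Atp5j (coupling factor 6, a part of the peripheral stalk) at chr16:84827866-84835625 (GRCm38) had 134 and 115 CPM in libraries labelled Skp1aKO, against 1851 and 1562 CPM in wt libraries. Its change of -3.78 ± 0.77 (SE; edgeR adjusted p = 0.00893) was the largest decrease in complex V. Atp5mpl had 92.7 and 90.1 against 961 and 651 CPM (-3.14 ± 0.63 (SE; edgeR adjusted p = 0.00877)), and Atp5pb, the stalk subunit b, had 109 and 127 against 980.4 and 1078 CPM (-3.13 ± 0.63 (SE; edgeR adjusted p = 0.00877)). Both were lower in every Skp1aKO library. Among the core subunits, Atp5c1, the rotating γ subunit, had 116 and 108 against 754 and 897 CPM (-2.89 ± 0.65 (SE; edgeR adjusted p = 0.0124)). Atp5a1, the α subunit, had 191 and 198 against 580.0 and 603 CPM (-1.60 ± 0.54 (SE; edgeR adjusted p = 0.0431)). The catalytic Atp5b had 280.0 and 238 against 783 and 779 CPM and missed the threshold (-1.59 ± 0.58 (SE; edgeR adjusted p = 0.0548)). Atp5d, the δ subunit of the rotor stalk, stood apart from its neighbours with 53.7 and 40.4 against 49.2 and 54.6 CPM, overlapping groups (-0.14 ± 0.38 (SE; edgeR adjusted p = 0.768)).

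The number of calls rested on few libraries. Without Skp1aKO replicate 1, 2 members were lower (1.16% of all genes), and without Skp1aKO replicate 2 there were also 2 (2.52%). Without wt replicate 1, 29 members were lower (6.39% of all genes), and without wt replicate 2 there were 3 (1.24%); in such fits the lone library is assumed to vary like the other groups. Without Skp1acont replicate 2, which is in neither group but in the shared estimate of spread, 80 members were lower, with 31.8% of all genes lower and 36.1% higher. The median of the members lay between -2.52 and -2.15 in these 5 fits. Many abundant genes fell in the same comparison. Of the 1640 other genes with a mean of at least 100 CPM, 51.2% were lower and 2.74% higher, with a median of -1.42, beside 56 of the 66 members at that level (median -2.57). Genes under 10 CPM went the other way, with a median of 1.51 over 10103 other genes, of which 25.0% were higher. Among short genes (under 1000 bp of exon) at that level, the median was -2.27 for 128 other genes and -2.50 for 18 members. Log2 fold changes of the 86 members had a Spearman correlation of 0.10 with exon length, a description over genes of the same libraries.

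**Figure D3:**
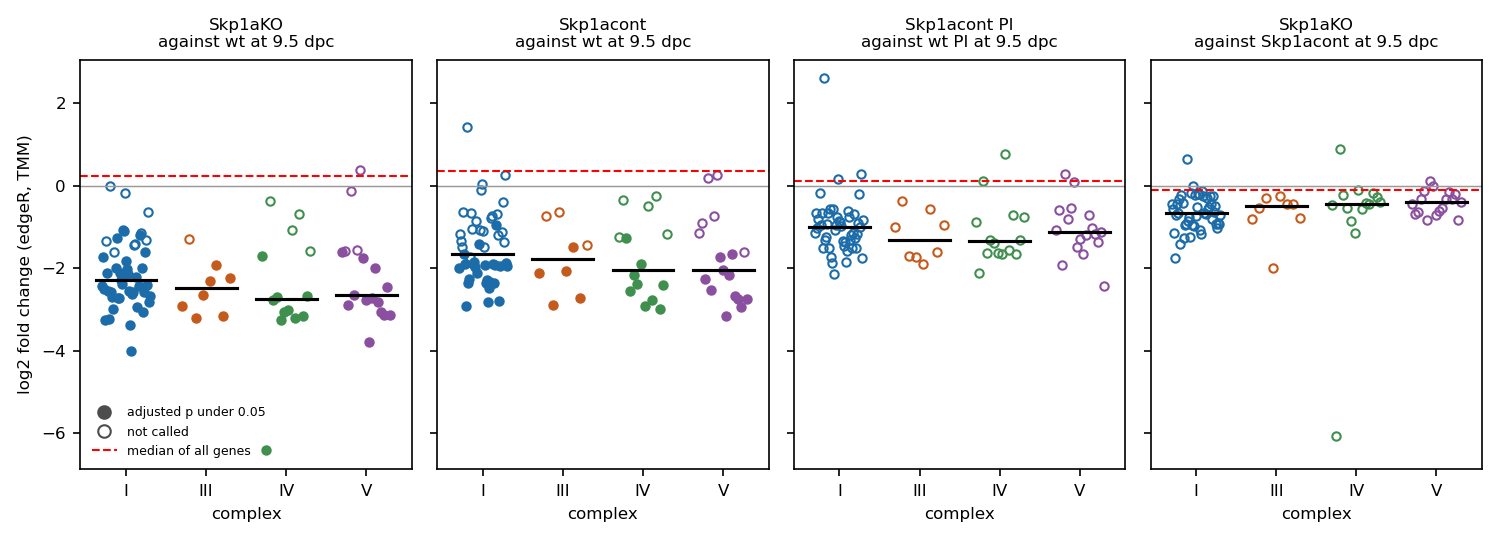
Log2 fold changes (edgeR, TMM scaling) of the 86 tested genes by complex in 4 comparisons; filled points passed an adjusted p of 0.05, open points did not, black bars are medians of the complex and the red dashed line is the median of all 18837 genes. Nearly all points lie below the red line in the 3 comparisons of Skp1a-labelled with wt libraries, and only Cox4i2 lies under -6.

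Libraries labelled Skp1acont also differed from wt at 9.5 dpc. Of the 86 members, 50 were lower and 0 higher by edgeR, while 17.1% of all genes were lower and 19.3% higher (36.4% in either direction). The median was -1.80, beside 0.34 for all genes; library totals gave 32 lower members, medians of -1.11 and 1.07, and 6.62% of all genes lower and 37.5% higher. Lower genes numbered 25 of 47 in complex I, 5 of 8 in complex III, 9 of 14 in complex IV and 11 of 17 in complex V. This comparison uses the same wt libraries as the one above, so the values are placed side by side and not counted as a second observation. Atp5j had 333 and 51.0 CPM in libraries labelled Skp1acont, against 1851 and 1562 in wt libraries (-3.15 ± 0.74 (SE; edgeR adjusted p = 0.0153)). Ndufs4, an accessory subunit needed for a stable NADH module, had 115 and 35.6 against 508 and 549.7 CPM (-2.81 ± 0.54 (SE; edgeR adjusted p = 0.00941)). Cox7b had 206 and 45.9 against 1108 and 907 CPM (-3.00 ± 0.64 (SE; edgeR adjusted p = 0.012)), and Uqcrb had 307 and 101 against 1723 and 1307 CPM (-2.89 ± 0.56 (SE; edgeR adjusted p = 0.00953)). In each of these the second Skp1acont library was several-fold below the first. Of the 18 core subunits 7 were lower (median -1.05), with Ndufv2 (-1.88 ± 0.62 (SE; edgeR adjusted p = 0.0407)) and Atp5c1 (-2.25 ± 0.63 (SE; edgeR adjusted p = 0.0254)) among them, while 8 of 9 small subunits of complex V were (median -2.67). Other members with large decreases were Ndufa4 (-2.90 ± 0.68), Uqcrh (-2.71 ± 0.63), Cox6c (-2.91 ± 0.59) and Atp5md (-2.74 ± 0.61). Cox5a, which did not pass in the Skp1aKO libraries, had 76.2 and 71.2 CPM in libraries labelled Skp1acont, against 208 and 147 CPM in wt libraries (-1.27 ± 0.36 (SE; edgeR adjusted p = 0.0252)). Ndufv1 had 70.7 and 23.2 against 37.1 and 42.3 CPM, with 1 library on each side of the wt range (0.25 ± 0.44 (SE; edgeR adjusted p = 0.655)).

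The number called depended on single libraries of both groups. Without replicate 2, 54 members were lower and 3 higher, with a median of -1.07, and 19.2% of all genes were lower and 19.9% higher. Without replicate 1, 82 were lower, with a median of -3.21, and 35.6% of all genes were lower and 38.4% higher. Without either wt library, in turn, 0 members passed by edgeR, with 48 and 44 at an unadjusted p under 0.05, and 2.01% and 0.0655% of all genes were lower. The DESeq2 Wald test on all libraries called 54 members and 16% of all genes lower. Of the other genes with at least 100 CPM, 48.8% were lower with a median of -1.36, beside 44 of 66 members with a median of -1.96.

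The libraries with PI in the label allow the same contrast of Skp1acont with wt on other libraries. The Skp1acont PI group has 1 library and no spread of its own. Its test uses the spread shared by all groups, the unlike Skp1acont pair among them. No member passed the edgeR test in Skp1acont PI against wt PI (0 of 86, with 17 at an unadjusted p under 0.05), in a comparison where 0.441% of all genes passed (0.111% higher and 0.329% lower). DESeq2 called 11 members and 7.17% of all genes lower, and edgeR without Skp1acont replicate 2 called 65 lower and 1 higher, with 22.5% of all genes lower and 20.6% higher. The Skp1acont PI library was below both wt PI libraries in 79 members and above both in 7, where 40.9% of all tested genes were below both and 47.6% above both. The median log2 fold change was -1.10 (-0.50 by library totals), beside 0.10 for all genes and -1.06 for other genes of at least 100 CPM. Atp5pb had 184 CPM in the Skp1acont PI library, against 989 and 983 CPM in wt PI libraries (-2.43 ± 0.80 (SE; edgeR adjusted p = 0.123)). Cox6b1 had 275 against 758 and 680.2 CPM (-1.39 ± 0.81 (SE; edgeR adjusted p = 0.302)), and Uqcrc1 had 54.4 against 184 and 175 CPM (-1.72 ± 0.51 (SE; edgeR adjusted p = 0.101)). Each was lower in the 1 library, and none passed. Ndufv1 had 68.1 against 54.8 and 57.2 CPM and Atp5d 102 against 82.7 and 86.1 CPM, and these were among the 7 genes on the upper side, with Ndufa4l2, Ndufaf8, Cox5a, Cox7a1 and Atp5g2. Over 15 central subunits (6 of the core of complex I, Uqcrc1, Uqcrc2, Uqcrfs1, Cox4i1, Cox5a, Cox5b, Atp5a1, Atp5b and Atp5c1) the log2 fold changes ran from -1.93 (Atp5c1) to 0.28 (Ndufv1).

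Skp1acont PI has 1 library and no spread of its own, so an absence of calls in the next test cannot show that PI has no part. Whether the contrast of Skp1acont with wt depends on PI was tested as a difference of both contrasts. It was called for 0 of 86 members by edgeR, where 0% of all genes passed, with a smallest adjusted p of 0.770 and 2 members at an unadjusted p under 0.05; DESeq2 called 0 members as well. The count turned on the Skp1acont pair: 74 members were called higher and 1 lower without replicate 1, where 23.7% of all genes were higher and 11.9% lower. Without replicate 2 the counts were 2 higher and 0 lower, where 0.764% of all genes were higher and 1.89% lower.

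Libraries labelled Skp1aKO and Skp1acont, the pair of groups that differ in the labelled knockout, gave 0 called members by edgeR, with 5 at an unadjusted p under 0.05. Over all genes edgeR also called 0, or 0%, with 1308 at an unadjusted p under 0.05, and DESeq2 called 95 genes, of which 2 were members, both lower. The median of the members was -0.52, beside -0.11 for all genes. In 79 members the libraries overlapped, in 5 both Skp1aKO libraries were lower and in 2 both were higher, where 12% and 11.4% of all tested genes were so, shares above those of the members. Uqcrc1 had 22.3 and 12.8 CPM in libraries labelled Skp1aKO, against 87.0 and 52.2 CPM in libraries labelled Skp1acont (-1.99 ± 0.40 (SE; edgeR adjusted p = 0.25)). Ndufaf7, a methyltransferase that acts on complex I, had 17.8 and 16.3 against 34.6 and 33.2 CPM (-0.99 ± 0.25 (SE; edgeR adjusted p = 0.356)). Cox5a was on the other side with 129 and 146 against 76.2 and 71.2 CPM (0.90 ± 0.35 (SE; edgeR adjusted p = 0.632)). The other genes without overlap were Ndufa4l2, Ndufaf2 and Cox4i2, lower, and Ndufab1, higher. All 7 are named because of these values. Ndufa4l2 had 2 and 2 counts in libraries labelled Skp1aKO, against 9 and 2 in those labelled Skp1acont. Its lack of overlap thus rests on the scaling of equal counts. Cox4i2 had 0 and 0 counts against 14 and 1, so these 2 genes show no difference that can be relied on. For Cox7a2 and most others, the Skp1aKO libraries (143 and 127 CPM) lay between the Skp1acont libraries (302 and 59.5 CPM). The same 15 central subunits ran from -1.99 (Uqcrc1) to 0.90 (Cox5a). Leaving out 1 Skp1acont library turned the result: without replicate 2, 79 members were lower and 1 higher with a median of -1.15, and without replicate 1, 2 were lower and 56 higher with a median of 0.78. All genes gave 17.5% lower and 9.79% higher without replicate 2, and 10.1% lower and 21.2% higher without replicate 1.

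Among the wt libraries the spread was far smaller than in the fit of all groups, and the members did not move as 1 block. In the fit of all 6 groups, wt PI against wt at 9.5 dpc gave 0 called members of 86 by edgeR, with 4 at an unadjusted p under 0.05 and 0.069% of all genes called (0.0372% higher and 0.0319% lower); DESeq2 called 0 as well. In a fit of the 6 wt libraries alone, which tested 85 members, 35 were lower and 13 higher in wt PI, beside 12.4% of all genes lower and 15.6% higher. With the lot as a block the counts were 43 lower and 17 higher, and all 35 and 13 genes were among them, beside 17.9% and 21% of all genes. Without Skp1acont replicate 2 the fit of all groups gave 31 lower and 4 higher, beside 6% and 7.87% of all genes. The values below are from the wt libraries with the lot as a block, where the spread between replicates was 7.19% against 19.6% without it. Their p-values rest on that choice. Marker genes of neural progenitors summed to 633 and 610 CPM in wt PI, against 1813 and 1666 CPM in the wt 9.5 dpc group. Neuron markers had 221 and 226 against 518 and 596 CPM, and primitive erythroid markers 9414 and 11887 against 17701 and 23597 CPM. Surface ectoderm markers were higher, with 53.8 and 41.8 against 28.3 and 35.4 CPM, as were endoderm markers. Muscle and endothelial markers overlapped. The part of cell composition in the values below was not tested.

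Of the small subunits of complex V, 7 of 9 were lower in wt PI and 0 higher, with a median log2 fold change of -0.95. Atp5l, subunit g of the membrane part, at chr9:44912557-44920742 (GRCm38), had 454 and 409.5 CPM in wt PI libraries, against 1063 and 891 CPM in wt libraries (-1.18 ± 0.09 (SE; edgeR adjusted p = 2.32e-08)). Atp5j had 919 and 854 against 1851 and 1562 CPM (-0.95 ± 0.09 (SE; edgeR adjusted p = 3.77e-07)), and Atp5mpl had 413 and 395 against 961 and 651 CPM (-0.97 ± 0.12 (SE; edgeR adjusted p = 6.89e-05)). In all 3 genes both wt PI libraries were below both wt libraries, and the genes were named with these values known. Of the core subunits of complex V, 4 of 8 were higher and 1 lower. Atp5d had 82.7 and 86.1 against 49.2 and 54.6 CPM (0.69 ± 0.10 (SE; edgeR adjusted p = 2.17e-05)), and the c-ring gene Atp5g3 had 950.5 and 960.0 against 614 and 718 CPM (0.51 ± 0.09 (SE; edgeR adjusted p = 0.000143)). The exception was Atp5e, the ε subunit, with 449 and 409.9 against 969 and 699 CPM (-0.95 ± 0.10 (SE; edgeR adjusted p = 1.19e-06)). The α, β and γ subunits of ATP synthase had smaller values, with 0.23 ± 0.09 (SE) for Atp5b, 0.17 ± 0.08 for Atp5a1 and 0.13 ± 0.09 for Atp5c1, of which Atp5b passed (edgeR adjusted p = 0.0371).

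In complex I, of the 7 core subunits, 4 were higher in wt PI and 0 lower (median 0.26), whereas of 30 supernumerary subunits 18 were lower and 3 higher (median -0.38). Ndufv1 had 54.8 and 57.2 CPM in wt PI libraries, against 37.1 and 42.3 CPM in wt libraries (0.48 ± 0.10 (SE; edgeR adjusted p = 0.00138)). Ndufc1, a small membrane-arm subunit, had 464 and 433 against 925 and 761 CPM (-0.91 ± 0.09 (SE; edgeR adjusted p = 4.76e-07)), and Ndufa1 had 139 and 134 against 263 and 214 CPM (-0.79 ± 0.10 (SE; edgeR adjusted p = 2.29e-05)). Higher subunits were Ndufa9, which holds a bound NADPH, with 178 and 171 against 99.5 and 136 CPM (0.55 ± 0.10 (SE; edgeR adjusted p = 0.000389)), Ndufa8 (0.37 ± 0.09 (SE; edgeR adjusted p = 0.00313)) and Ndufa10 (0.33 ± 0.09 (SE; edgeR adjusted p = 0.00641)). Among the assembly factors 3 were higher and 2 lower, with Ndufaf4 at 202 and 204 against 141 and 156 CPM (0.44 ± 0.09 (SE; edgeR adjusted p = 0.000712)). The difference between core and other subunits was not tested.

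In complex III, Uqcrc1 was higher in wt PI with 184 and 175 CPM, against 99.5 and 119 CPM in wt libraries (0.70 ± 0.10 (SE; edgeR adjusted p = 1.9e-05)). The Rieske protein gene Uqcrfs1 was lower with 104 and 88.5 against 147 and 134 CPM (-0.56 ± 0.09 (SE; edgeR adjusted p = 7.97e-05)), as were 4 of 5 small subunits, with Uqcrb at 945 and 884 against 1723 and 1307 CPM (-0.73 ± 0.10 (SE; edgeR adjusted p = 4.52e-05)). In complex IV, 7 of 11 main subunits were lower and 2 higher. The lower ones included Cox6c with 782 and 708 against 1531 and 1169 CPM (-0.85 ± 0.09 (SE; edgeR adjusted p = 1.62e-06)) and Cox7c with 1115 and 1073 against 2181 and 1720.1 CPM (-0.83 ± 0.10 (SE; edgeR adjusted p = 2.99e-06)). The higher ones were Cox7a2l with 242 and 249.7 against 124 and 157 CPM (0.80 ± 0.09 (SE; edgeR adjusted p = 2.14e-06)) and Cox8a with 492 and 482 against 287 and 365 CPM (0.57 ± 0.10 (SE; edgeR adjusted p = 0.000259)). Cox7a2l is known as a factor of supercomplexes, in which complexes III and IV associate.

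Length differs between these classes. The tested core subunits had a median exon length of 2179.5 bp and the supernumerary subunits one of 1237 bp, although the small subunits of complex V reached 2755 bp by the union of exons and 932 bp by the longest transcript. In the fit of all groups, other genes of at least 100 CPM had a median log2 fold change of 0.06 in wt PI against wt, and members at that level -0.32. Of these, other genes under 1000 bp of exon had -0.30 (128 genes) and members under 1000 bp -0.34 (18 genes), so the short members lay close to other short genes. The parts of length and of cell composition in the core and small subunits' values were not tested.

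**Figure D4:**
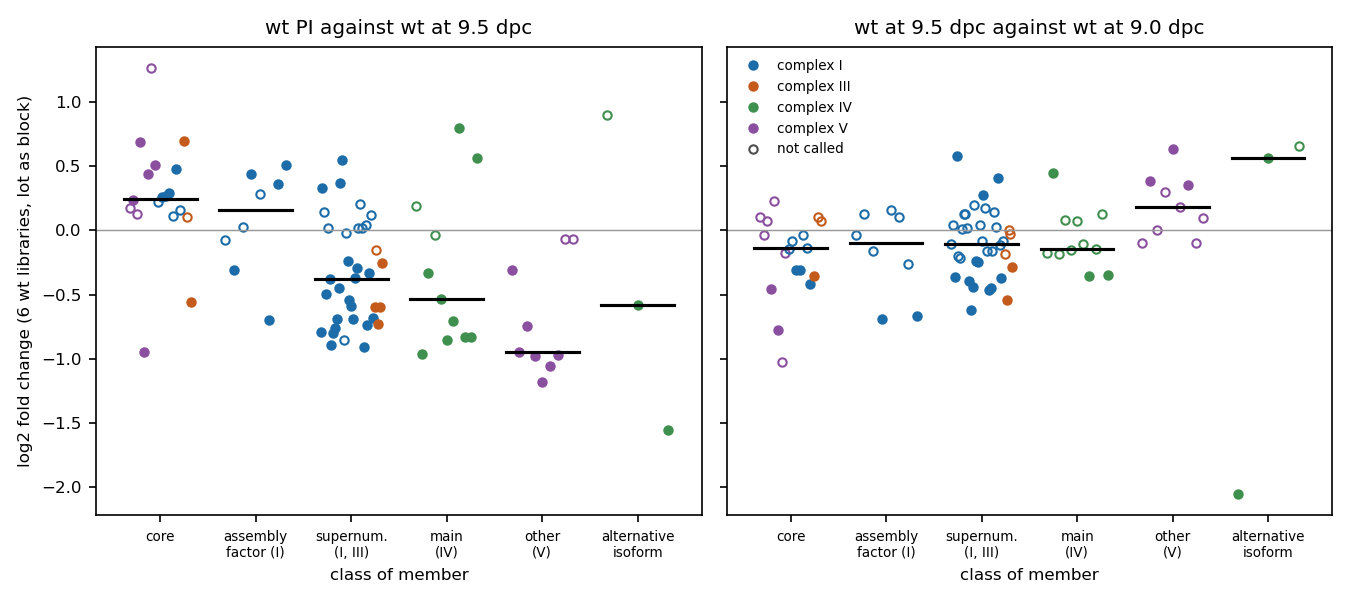
Log2 fold changes of members in the 6 wt libraries, with the lot as a block, by class of member: left, wt PI against wt at 9.5 dpc; right, wt at 9.5 dpc against 9.0 dpc. Each point is 1 gene coloured by complex, filled where the adjusted p was under 0.05, black bars are medians, and the pseudogene Ndufb4c is not drawn. On the left the core class has its median above 0 (0.25) and the other subunits of complex V have theirs at -0.95; on the right the medians of these classes are -0.14 and 0.18.

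Between 9.0 and 9.5 dpc the members of wt embryos changed little as a set. In the fit of all groups, 0 of 86 were called by edgeR, with 1 at an unadjusted p under 0.05 and 1.6% of all genes called (1.27% higher and 0.334% lower); DESeq2 called 0 too. Without Skp1acont replicate 2 there were 7 lower and 2 higher, beside 9.64% and 8.04% of all genes. The median was -0.12 with TMM and 0.02 with library totals, so the set has no direction that holds under both scalings. In the wt libraries alone 18 members were lower at 9.5 dpc and 5 higher, beside 16.7% of all genes lower and 15% higher. With the lot as a block, 22 were lower and 8 higher, with all 18 and 5 among them, beside 22.8% and 18.8% of all genes. These shares are near those of all genes for the lower members and under them for the higher ones. All 5 neuron markers were higher at 9.5 dpc in the fit of all groups, with a median log2 fold change of 3.41. Of the other lists, neural progenitor markers had 1 of 7 higher (median 1.06) and trophoblast markers 1 of 3 (4.89). Lower were 3 of 5 surface ectoderm (-1.90), 1 of 10 muscle (-2.37), 1 of 6 head mesenchyme (-0.40) and 1 of 2 endoderm markers (-4.77). Erythroid and endothelial markers had 0 called (medians 0.62 and -0.14). The part of these markers in the changes below was not tested.

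The genes that were lower at 9.5 dpc include 2 of the 8 assembly factors and 3 of the 7 core subunits of complex I, beside 22.8% of all genes. With so few genes, these counts do not set the classes apart from all genes. Ndufaf4 had 141 and 156 CPM at 9.5 dpc, against 224 and 264 CPM at 9.0 dpc (-0.69 ± 0.09 (SE; edgeR adjusted p = 7.46e-06)), and Ndufaf8 had 23.1 and 24.8 against 42.2 and 37.3 CPM (-0.67 ± 0.13 (SE; edgeR adjusted p = 0.000494)). Ndufa8 had 119 and 139.7 against 204 and 204 CPM (-0.62 ± 0.09 (SE; edgeR adjusted p = 2.27e-05)). In all 3 genes the libraries of the 2 ages do not overlap. They were named for large changes in the same libraries, so this is no further evidence. Among core subunits of complex I, Ndufv2 (-0.42 ± 0.09 (SE; edgeR adjusted p = 0.00104)), Ndufs3 (-0.31 ± 0.09 (SE; edgeR adjusted p = 0.00788)) and Ndufs7 (-0.30 ± 0.09 (SE; edgeR adjusted p = 0.0149)) were lower. In complex III, Uqcr11 had 316 and 339 against 522 and 459 CPM (-0.54 ± 0.09 (SE; edgeR adjusted p = 7.71e-05)). Higher at 9.5 dpc were Ndufa12 with 733 and 753 against 519 and 497 CPM (0.58 ± 0.08 (SE; edgeR adjusted p = 2.88e-05)), Ndufs4 with 508 and 549.7 against 397 and 415 CPM (0.41 ± 0.08 (SE; edgeR adjusted p = 0.000691)) and Atp5l with 1063 and 891 against 694 and 592 CPM (0.63 ± 0.09 (SE; edgeR adjusted p = 1.29e-05)). Each of these higher genes had both 9.5 dpc libraries above both at 9.0 dpc, and each was likewise named for its change.

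Isoform pairs allow a look at which copy of a subunit is used. The c-ring of ATP synthase is encoded by Atp5g1, Atp5g2 and Atp5g3, whose mature proteins are known to be identical and which differ in the targeting peptide. Atp5g2 at chr15:102662864-102672352 (GRCm38) took 6.30% to 17.7% of the counts of the 3 genes in the 5 libraries with a Skp1a label, against 1.88% to 4.70% in the 6 wt libraries, ranges that do not overlap. Its own level was 61.4 and 21.9 CPM in libraries labelled Skp1aKO and 48.1 and 28.7 in those labelled Skp1acont, against 43.3 and 21.6 CPM in wt libraries, and it was not called in either comparison (0.38 and 0.26). Atp5g1 took 33.3% and 33.1% of the family in wt PI, 33.8% and 35.7% in wt at 9.5 dpc and 43.8% and 44.1% in wt at 9.0 dpc. It was lower at 9.5 dpc with 336 and 409.6 CPM, against 651 and 649.5 CPM at 9.0 dpc (-0.77 ± 0.09 (SE; edgeR adjusted p = 2.28e-06)), while Atp5g3 did not pass (-0.17 ± 0.09 (SE; edgeR adjusted p = 0.12)).

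In complex IV, Cox7a2l took 33.8% to 56.8% of the counts of Cox7a1, Cox7a2 and Cox7a2l in libraries with a Skp1a label, against 8.92% to 25.9% in wt libraries. Its level differed less than that of Cox7a2: Cox7a2l had 92.7 and 81.0 CPM in libraries labelled Skp1aKO, 155 and 81.8 in Skp1acont and 124 and 157 in wt. Cox4i2, the isoform of Cox4i1 known from lung and from low oxygen, had no count in both Skp1aKO libraries, 2.66 and 0.302 CPM in libraries labelled Skp1acont and 1.47 and 2.43 CPM in wt libraries. Against a floor of 3 counts over the Skp1aKO group, it was at least 5.98-fold lower than in wt, and with this bound the median of complex IV is -2.69 in place of -2.74. Cox4i2 was also lower in wt at 9.5 dpc with 1.47 and 2.43 CPM, against 7.61 and 9.84 CPM at 9.0 dpc (-2.05 ± 0.32 (SE; edgeR adjusted p = 5.98e-05)). Its share of Cox4 counts did not exceed 1.24% in any library. Cox6b2, a form known from testis, had 3.64 and 1.77 CPM in libraries labelled Skp1aKO, against 21.7 and 23.5 CPM in wt (-3.05 ± 0.53 (SE; edgeR adjusted p = 0.00564)), and made up 1.75% to 3.42% of Cox6b counts in libraries with a Skp1a label and 1.26% to 2.24% in wt libraries.

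The heart and skeletal muscle isoforms were near 0 throughout. Cox7a1 had 1.38 and 1.18 CPM in wt PI libraries, against 3.67 and 3.65 CPM in wt libraries (-1.55 ± 0.44 (SE; edgeR adjusted p = 0.00955)), and it was not called in libraries labelled Skp1aKO (2.57 and 0.883 CPM). Cox6a2 did not exceed 1.51 CPM and Cox8b did not exceed 0.906 CPM, both in Skp1acont replicate 2. That library also had the highest sum of 13 muscle markers, 121 CPM, where the 5 libraries with a Skp1a label had 31.5 to 121 CPM and the wt libraries 11.7 to 70.6 CPM. Between 1 and 3 of the 13 markers were at 0 in libraries with a Skp1a label and between 2 and 7 in wt libraries. Ndufa4l2, an isoform of Ndufa4 known from low oxygen, had 0.428 and 0.442 CPM in libraries labelled Skp1aKO, 1.71 and 0.604 in Skp1acont and 2.54 in Skp1acont PI, against 0.345 and 0.43 in wt PI, 0 and 0.676 in wt at 9.5 dpc and 0.346 and 1.07 at 9.0 dpc. At these depths 3 counts correspond to 0.323 to 1.10 CPM, so Cox6a2, Cox8b and Ndufa4l2 cannot be compared between groups.

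**Figure D5:**
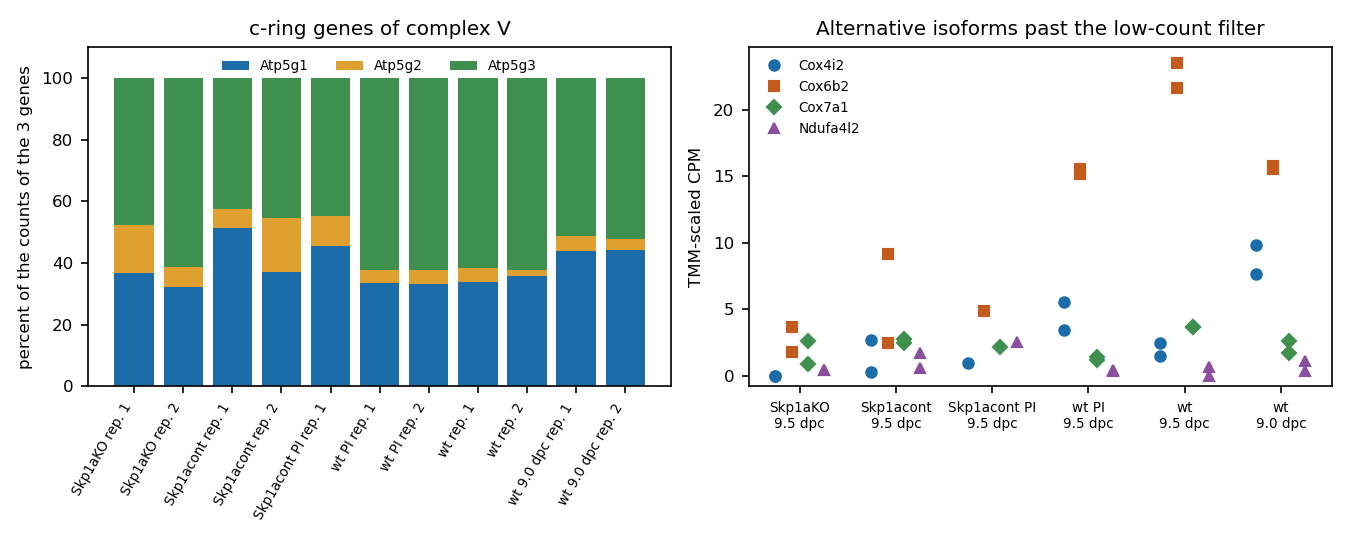
Left, the share of the counts of the c-ring genes Atp5g1, Atp5g2 and Atp5g3 in each library, in percent, as bars that start at 0; right, TMM-scaled CPM of the alternative isoforms Cox4i2, Cox6b2, Cox7a1 and Ndufa4l2 by group, 1 point a library. Atp5g2 takes 6.30% to 17.7% in libraries with a Skp1a label and at most 4.70% in wt libraries; Cox4i2 is highest at 9.0 dpc.

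Other genes of the same pathway also had lower members in libraries with a Skp1a label. Against wt at 9.5 dpc, libraries labelled Skp1aKO were lower in 2 of 4 genes of complex II (Sdha -1.45 ± 0.45 and Sdhb -2.38 ± 0.80, log2 ± SE, edgeR adjusted p = 0.0339 and 0.043), and in 12 of 24 assembly factors of complexes III and IV. They were also lower in 2 of 3 assembly factors of ATP synthase, in 47 of 78 proteins of the mitochondrial ribosome (median -1.80) and in 62 of 84 cytosolic ribosomal proteins (median -1.99), with 0 higher in each of these lists. Of all tested genes, 18.7% were lower and 17.6% higher. Among genes other than the members, 30.7% of those with 10 to 99 CPM and 51.2% of those with at least 100 CPM were lower. The part of expression level in the counts of these lists was not tested. In the fit that leaves out Skp1acont replicate 2, the median log2 fold change was -0.73 for complex II and -1.18 for the 24 assembly factors. It was -1.21 for the 3 of ATP synthase, -1.67 and -1.85 for mitochondrial and cytosolic ribosomal proteins, and 0.17 for all genes. Cytochrome c (Cycs), the carrier between complexes III and IV, changed by -3.04 ± 0.61 (edgeR adjusted p = 0.00888), and Cyc1 did not pass (-0.92 ± 0.60, edgeR adjusted p = 0.231). The mitochondrial genome's 13 protein genes had 1 called gene, higher, mt-Nd4l (1.32 ± 0.42, edgeR adjusted p = 0.0347), with a median of 0.56 and 0 lower. Their median without Skp1acont replicate 2 was 0.70.

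Regulators of mitochondrial biogenesis were mixed, with 2 of 11 higher and 4 lower in libraries labelled Skp1aKO, beside 17.6% of all genes higher and 18.7% lower. These counts were 3 higher and 5 lower without Skp1acont replicate 2. The coactivator Ppargc1b (1.96 ± 0.65, edgeR adjusted p = 0.0414) and the nuclear receptor Esrra (1.97 ± 0.61, edgeR adjusted p = 0.0341) were higher. Both were low: Ppargc1b had 5.14 and 3.09 CPM in libraries labelled Skp1aKO, against 0.734 and 1.22 in wt libraries. Esrra had 7.49 and 8.61 against 1.84 and 2.16 CPM, and 3 counts correspond to 1.10 CPM in wt replicate 1. Among genes other than the members, 25.0% of those under 10 CPM were higher in this comparison (median 1.51). The ETS factor Gabpa (-1.77 ± 0.43, edgeR adjusted p = 0.0161), Yy1 (-2.11 ± 0.67, edgeR adjusted p = 0.0355) and the mitochondrial transcription factor Tfam (-1.76 ± 0.54, edgeR adjusted p = 0.0318) were among the lower ones. Nrf1 did not pass (0.36 ± 0.29, edgeR adjusted p = 0.32). In libraries labelled Skp1acont, 1 regulator was higher and 5 were lower against the same wt libraries, and 31 of 78 mitochondrial and 48 of 84 cytosolic ribosomal proteins were lower. Of all tested genes, 17.1% were lower and 19.3% higher there. Among genes other than the members, 29.2% of those with 10 to 99 CPM and 48.8% of those with at least 100 CPM were lower. With Skp1acont replicate 2 left out, the medians were -0.45 for the regulators, -0.53 for mitochondrial and -1.04 for cytosolic ribosomal proteins, beside 0.19 for all genes. In the comparisons of Skp1aKO with Skp1acont and of Skp1acont PI with wt PI, edgeR called 0 genes of any of these lists. Without Skp1acont replicate 2, mitochondrial and cytosolic ribosomal proteins had medians of -1.05 and -0.77 in libraries labelled Skp1aKO against the 1 labelled Skp1acont. All genes had 0.04 there. In Skp1acont PI against wt PI the medians were -1.08 and -0.90, beside 0.14 for all genes.

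Markers of other cell types did not all move in 1 direction with the same labels. Against wt at 9.5 dpc, 18.7% of all tested genes were lower and 17.6% higher in libraries labelled Skp1aKO. In those labelled Skp1acont the shares were 17.1% and 19.3%. Of 9 primitive erythroid markers, 6 were lower in libraries labelled Skp1aKO and 6 in those labelled Skp1acont, against wt; their summed level was 920.6 to 6425 CPM in the 5 libraries with a Skp1a label, against 9302 to 23600 CPM in wt libraries, with none at 0. The median log2 fold changes of the erythroid markers were -2.97 and -2.27, and -2.84 and -1.57 without Skp1acont replicate 2. Of 10 tested muscle markers, 4 were higher and 1 lower in libraries labelled Skp1aKO (median log2 fold change 2.74), and 4 higher and 0 lower in those labelled Skp1acont (median 2.82). When Skp1acont replicate 2 was left out, 9 of them were tested, with medians of 2.98 in libraries labelled Skp1aKO and 1.73 in those labelled Skp1acont. Endothelial markers summed to 633.5 to 1190 CPM against 157 to 473 CPM, with 1 of 5 higher and 3 lower in libraries labelled Skp1aKO. Neural progenitor markers overlapped, with 260 to 654 CPM against 433 to 1813 CPM, and 2 of 7 were lower. Neuron markers summed to 160 to 378 CPM against 77.5 to 595.5 CPM, with 2 of 5 lower and none at 0 in any library. For Skp1aKO against wt, neural progenitor and neuron markers had medians of -0.51 and -0.89. Those medians were -0.36 and -0.74 without Skp1acont replicate 2. Surface ectoderm markers (23.8 to 33.1 CPM against 28.3 to 224 CPM) and head mesenchyme markers (53.2 to 69.1 CPM against 86.2 to 164 CPM) had 1 higher each in libraries labelled Skp1aKO, with 1 of 5 and 2 of 6 lower. Trophoblast markers summed to 180.2 and 34.9 CPM in the wt libraries at 9.5 dpc, which are the reference of several comparisons above. They had 2.35 to 4.18 CPM in libraries with a Skp1a label and 4.74 to 5.38 CPM in the other wt libraries. Endoderm markers were low in all libraries (5.32 to 15.7 CPM against 3.92 to 18.3 CPM). The part of cell composition in the level of the respiratory chain genes was not tested.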

How the data were processed

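Polyadenylated RNA of mouse embryos was sequenced (column extraction and NEBNext poly(A) selection, per the labels' protocols). The authors deposited whole-number read counts for 36255 genes in 11 libraries, not normalized. The submitters' processing notes name Trim Galore 0.6.7 and GRCm38. Aligner, counter and strand setting: not given in the sources used here. Overlapping genes are therefore uncertain.

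Counts were tested with edgeR 4.0.16 (R 4.3.3): filterByExpr by group (18837 genes), TMM, robust quasi-likelihood F test in 1 fit of 6 groups, two-sided, Benjamini-Hochberg over all genes, called at an adjusted p under 0.05. CPM is TMM-scaled. The spread between replicates, as a biological coefficient of variation, came to 35.3%, to 19.6% in the 6 wt libraries alone (13126 genes) and to 7.19% there with a lot block. On simulated counts for Skp1aKO against wt (18837 genes, 200 changed by a log2 value of 2), 98% were recovered, and 9 of 205 calls were false. The simulation used a smaller spread than the 35.3% found here and changed only genes with higher counts. Its 98% is therefore no measure of power in these data. Deviations from group means correlated within lots in the 3 pairs of wt groups (r = 0.297 to 0.343), and at -0.01 to 0.18 in pairs with a Skp1a label, so lots were taken, from the data, to pair the wt libraries. This choice used the same libraries that were then tested. Lot and depth go together in each wt group and cannot be told apart. Exon lengths came from GENCODE M21 (93 of 93 members). The NRF1 letters were searched in an 8-letter form after a longer form of the palindrome had been tried. Alternatives were other size factors, library totals, DESeq2 1.42.0, other filters, the lot block, the wt libraries alone, removal of mitochondrial genes and Dock10, and leaving out each library. Totals of 2320599 to 11607085 counts set the precision; floors of 3 counts cover counting error only.

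Named members were central subunits (core subunits of complexes I and III, Cox4i1, Cox5a, Cox5b, Atp5a1, Atp5b, Atp5c1), the isoform families, and up to 3 called members per direction and complex with the largest change; a few others were added as examples of their class after their values were seen, and 1 core subunit is not reported here by itself. A ranking by correlation with the sum of the complex was not made, because the libraries fall into separate clusters. Members and lists were chosen with earlier results of these data known.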

Additional observations from a re-analysis of the deposited data

How the results depend on the processing

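The decrease of members in libraries labelled Skp1aKO and Skp1acont against wt kept its direction under each scaling, filter, tool and left-out library tried, while the numbers called depended on single libraries. For Skp1aKO against wt the median was -2.20 with DESeq2 size factors, -1.64 with library totals, -2.20 with DESeq2, -2.23 with the filter of 1 CPM in 4 libraries and -2.26 with mitochondrial genes and Dock10 removed, an alternative chosen after seeing the data. For Skp1acont against wt, library totals gave 32 lower members. For Skp1acont PI against wt PI, 1 member was lower with DESeq2 size factors, 11 with DESeq2 and 1 with the CPM filter, and the median was -0.93, -0.50 (library totals), -0.93, -0.97, -1.33 (lot as replicate block) and -0.97 (mitochondrial genes and Dock10 removed). For Skp1aKO against Skp1acont, DESeq2 called 2 lower. In wt at 9.5 against 9.0 dpc the median was 0.025 with library totals, and the 6 wt libraries alone gave 5 higher and 18 lower, or 8 and 22 with the lot as a block. In wt PI against wt the median was -0.14 without a filter, and the wt libraries alone gave 13 higher and 35 lower, or 17 and 43 with the block. In the fit of all groups the block left 69 members lower for Skp1aKO and 50 for Skp1acont against wt. The cause of these differences was not tested.

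Leaving out 1 library at a time gave 2 to 80 lower members for Skp1aKO against wt (median -2.52 to -2.15), and 0 to 82 lower and 0 to 3 higher for Skp1acont against wt (-3.21 to -1.07). It gave 0 to 65 lower and 0 to 1 higher for Skp1acont PI against wt PI (-1.09 to -0.96), and 0 to 79 lower and 0 to 56 higher for Skp1aKO against Skp1acont (-1.15 to 0.78). The ranges were 0 to 31 lower and 0 to 4 higher for wt PI against wt (-0.31 to -0.11), 0 to 7 lower and 0 to 2 higher for wt at 9.5 against 9.0 dpc (-0.22 to -0.064), and 0 to 75 for the difference between both Skp1acont contrasts. Without Skp1acont replicate 1 the sign turned in 23 of 29 named members of Skp1aKO against Skp1acont, and 16 of these were then called, with log2 ranges over the left-out libraries for Atp5a1 (-1.07 to 0.69), Atp5b (-1.33 to 0.60), Atp5c1 (-1.34 to 0.87), Atp5g1 (-1.61 to 1.06), Atp5g3 (-0.70 to 1.40), Cox4i1 (-1.13 to 0.81), Cox5b (-0.79 to 0.80), Cox6b1 (-1.57 to 0.64), Cox7a2 (-1.14 to 1.16), Cox7b (-0.86 to 1.27), Cox8a (-1.16 to 1.33), Ndufa4 (-1.06 to 1.26), Ndufs8 (-1.84 to 1.21), Ndufv2 (-1.64 to 0.62), Uqcrc2 (-0.97 to 1.30) and Uqcrfs1 (-1.01 to 0.58). In Skp1acont against wt, 2 of 38 named members turned without Skp1acont replicate 1, of which Ndufv1 (-0.74 to 0.95) was then called, 4 without Skp1acont replicate 2 and 3 without wt replicate 2, none of these called on the turned side. Groups have at most 2 libraries, and 3 counts correspond to 0.323 to 1.10 CPM over the 11 libraries, so values near 1 CPM rest on few counts.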
